A study of Mus musculus with 3 samples.

Results

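The cell cycle genes described here are 38 genes of DNA replication and mitosis, taken by name from 21507 genes counted in both deposited tables of a mouse lung study. All 38 were counted. By their known roles 12 were set down as S phase members, 24 as mitotic members, and Hmgb2 and Stmn1 as members used in both phases. The lungs came from wild type C57Bl/6J mice. The cell group was 1 droplet library (10x Chromium, 3' v3 chemistry) of whole cells, released from fresh lung with collagenase and DNAse and cleaned on an Optiprep gradient. The nucleus group was 2 libraries of nuclei from adult lung that was snap frozen, lysed in Nuclei EZ Lysis buffer and passed through a fine filter. Preparation and fresh or frozen tissue therefore cannot be told apart. No separate animals are named in the labels, and each p below therefore reflects the spread of these samples alone, part of which may be technical. Xist, transcribed from the inactive X, stood at 285 CPM in cells, against 1022 and 9.62 CPM in nucleus replicates 1 and 2, and the Y-linked Uty at 1.03 CPM in cells, against 0.938 and 269 CPM in nuclei. The nucleus replicates were thus not both made from a single animal, and they differ by sex as well as by library. The cell library has no replicate. The spread between replicates behind each SE and p therefore comes from the 2 nucleus libraries, with 1 residual degree of freedom. The cell library is assumed to vary like them, and its own spread was not measured.

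A dividing cell first copies its DNA. The Mcm2 to Mcm7 proteins form the helicase that opens the double strand, Pcna is the ring that holds the polymerase, Pclaf binds Pcna, and Tyms, Tk1, Rrm1 and Rrm2 make nucleotides. In mitosis, Cdk1 with the cyclins Ccnb1, Ccnb2 and Ccna2 starts the process, the Aurora and Polo kinases Aurka, Aurkb and Plk1 build the spindle, Bub1 and Bub1b hold the checkpoint, and Cdc20 and Ube2c work with the anaphase-promoting complex. The adult lung divides little at rest, and self-renewing alveolar macrophages and blood-borne lymphocytes are among the cells known to divide there. E2F factors are known to drive replication genes, a repressor complex that binds CHR letters is known to act on mitotic genes, and CCAAT letters in such promoters are known to be bound by the activator NF-Y.

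Promoters of 32 of the 38 members were matched in RefSeq (GRCm38.p6), each 250 bases before to 50 bases after a start position. For some members, among them Mcm5 and Aurka, that start is not the outer end of the gene span used further below. Bases given here are counted from the start of the window's own promoter. Mcm4, Ccna2, Aurkb, Kif20a, Tpx2 and Stmn1 had none in the table. The letters of both phase groups differed in these windows, which the choice of members had not used. The E2F letters searched were TTCCCGC and TTGGCGC as well as TTCGCGC and also TTGCCGC, on either strand. They stood in 7 of 11 S phase promoters (63.6%) and 3 of 20 mitotic promoters (15.0%), against 9.69% of all 27025 promoters. CHR letters (TTTGAA, either strand) stood in 1 of 11 S phase promoters (9.09%) and 15 of 20 mitotic promoters (75.0%), against 18.1% of all promoters. CCAAT (either strand) was common to both groups, in 9 of 11 (81.8%) and 17 of 20 (85.0%), against 37.9% of all promoters. At least 2 CCAAT stood in 11 of 20 mitotic promoters (55.0%), against 12.2% of all. On the gene's own strand alone, E2F letters stood in 45.5% of S phase and 10.0% of mitotic promoters, against 5.21% of all promoters. CHR letters stood there in 9.09% and 65.0%, against 10.1% of all promoters. These are counts of letters and not of bound sites. E2F matches overlap each other in Mcm3, Mcm5, Mcm6 and Mcm7, E2F matches overlap CCAAT in Ccnb1 and Mcm7, and CCAAT matches overlap each other in Ube2c. The 5 promoters below were chosen, after their letters were seen, to show both kinds: 2 helicase subunits with several E2F matches and 3 mitotic genes with CHR and CCAAT letters. Capitals mark those letters, read 5′ to 3′ on the gene's strand.
Mcm5 (chr8:75109259-75109558, plus strand): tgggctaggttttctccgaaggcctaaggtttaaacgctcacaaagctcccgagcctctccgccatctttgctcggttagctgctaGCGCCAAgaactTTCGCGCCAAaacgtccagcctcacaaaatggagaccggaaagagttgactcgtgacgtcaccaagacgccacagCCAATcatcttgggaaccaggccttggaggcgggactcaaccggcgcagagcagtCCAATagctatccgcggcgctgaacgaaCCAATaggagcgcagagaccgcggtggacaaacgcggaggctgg
Mcm6 (chr1:128359656-128359955, minus strand): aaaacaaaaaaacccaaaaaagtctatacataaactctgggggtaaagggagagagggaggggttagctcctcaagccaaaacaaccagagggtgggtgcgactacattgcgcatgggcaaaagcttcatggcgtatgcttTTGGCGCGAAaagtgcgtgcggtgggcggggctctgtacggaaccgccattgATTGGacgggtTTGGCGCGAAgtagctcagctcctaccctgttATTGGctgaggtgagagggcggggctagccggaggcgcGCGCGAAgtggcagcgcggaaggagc
Top2a (chr11:99024140-99024439, minus strand): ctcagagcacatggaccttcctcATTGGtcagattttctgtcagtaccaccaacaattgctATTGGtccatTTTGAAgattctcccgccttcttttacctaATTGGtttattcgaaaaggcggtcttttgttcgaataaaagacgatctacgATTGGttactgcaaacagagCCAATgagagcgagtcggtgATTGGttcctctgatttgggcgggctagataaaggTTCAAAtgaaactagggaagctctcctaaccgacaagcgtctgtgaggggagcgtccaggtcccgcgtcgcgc
Cdk1 (chr10:69352863-69353162, minus strand): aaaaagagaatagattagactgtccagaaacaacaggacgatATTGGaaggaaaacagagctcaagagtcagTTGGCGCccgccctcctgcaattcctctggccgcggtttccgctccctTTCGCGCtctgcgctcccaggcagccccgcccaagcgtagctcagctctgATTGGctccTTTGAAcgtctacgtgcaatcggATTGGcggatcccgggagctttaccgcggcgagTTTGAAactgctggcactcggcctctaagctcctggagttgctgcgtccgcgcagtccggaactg
Ube2c (chr2:164769679-164769978, plus strand): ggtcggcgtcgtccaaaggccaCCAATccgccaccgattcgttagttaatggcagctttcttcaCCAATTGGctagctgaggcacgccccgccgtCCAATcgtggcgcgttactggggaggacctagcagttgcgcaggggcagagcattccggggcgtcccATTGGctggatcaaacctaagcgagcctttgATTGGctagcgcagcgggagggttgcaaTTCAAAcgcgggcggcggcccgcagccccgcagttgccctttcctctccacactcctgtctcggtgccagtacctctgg
Mcm5 had 3 E2F matches, the first at base -164 from the start, and Mcm6 had 5, the first at base -109. Neither of these held TTTGAA on either strand. Top2a, whose product untangles DNA strands, and Ube2c, the ubiquitin-conjugating enzyme of anaphase, each held 6 CCAAT matches, and their last CHR match began at base -23 in Top2a and at base -29 in Ube2c. Cdk1 held letters of all 3 kinds. Of the members without E2F letters in the window, Pcna, Mcm2, Tk1 and Tyms were S phase members, and Tk1, Tyms, Birc5 and Nusap1 held none of the 3 motifs.

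After filters the cell library held 11934 barcodes and 35962788 UMIs (unique transcript counts), and nucleus replicates 1 and 2 held 6756 barcodes with 27719346 UMIs and 9806 barcodes with 27148272 UMIs. No deposited barcode held more than 2499 genes in cells, or more than 2499 and 2999 genes in nuclei. Between 20 and 24 barcode sequences were shared by any 2 libraries. Cells and nuclei were each clustered without the cell cycle genes and named from lineage markers. The nucleus libraries differed from each other in many mitotic members, with replicate 2 the higher for Mki67, Top2a and Kif23, as given below. In summed libraries, more dividing cells and more RNA per dividing cell cannot be told apart.

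Over whole libraries the S phase members were mostly higher in cells than in nuclei. Of the 12, 8 were higher in cells and none was lower at an edgeR adjusted p under 0.05, where 16.3% of all 19806 genes tested were higher and 8.19% lower. By unadjusted p 11 S phase members were higher and none lower, where 23.7% of all genes were higher and 16.9% lower. DESeq2 also called 8 higher and none lower, where it called 15% of all genes higher and 11.4% lower. The median log2 fold change of the S phase members, cells over nuclei, was 1.67, against -0.03 over all genes.

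Pcna had 105 CPM (UMI counts scaled to a common library total, here with TMM) in cells, against 10.4 and 11.6 CPM in nucleus replicates 1 and 2. The cell value stood far above both nucleus values, which were close to each other. Pcna was thus higher in cells by a log2 fold change of 3.26 ± 0.30 (SE, edgeR adjusted p = 0.0048), the largest among the S phase members. Rrm2, a subunit of ribonucleotide reductase, had 7.97 CPM in cells, against 0.918 and 0.938 CPM in nuclei. Its log2 fold change was 3.10 ± 0.52 (edgeR adjusted p = 0.012), with groups that did not overlap. Among the helicase subunits, Mcm5 had 14.2 CPM in cells, against 2.06 and 3.18 CPM in nuclei (log2 fold change 2.44 ± 0.48, edgeR adjusted p = 0.018). Mcm2 had 12.3 CPM in cells, against 2.02 and 2.95 CPM in nuclei (2.31 ± 0.48, edgeR adjusted p = 0.021). The helicase moved nearly as a whole, with Mcm3, Mcm4 and Mcm6 also higher (log2 fold changes 2.72, 1.49 and 1.70) and Mcm7 short of the threshold at 1.29 ± 0.38 (edgeR adjusted p = 0.057).

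The enzymes of nucleotide supply did not move together. Rrm1, the large reductase subunit, was higher in cells (log2 fold change 1.63), as was Rrm2. Tyms, thymidylate synthase, had 9.93 CPM in cells, against 10.0 and 12.4 CPM in nuclei. The cell value lay just below both, and the log2 fold change of -0.17 ± 0.40 did not pass the test (edgeR adjusted p = 0.77). Tk1, thymidine kinase, had 21.3 CPM in cells, against 12.2 and 8.71 CPM in nuclei (1.03 ± 0.38, edgeR adjusted p = 0.097). Pclaf had 17.6 CPM in cells, against 3.64 and 8.68 CPM in nuclei (1.51 ± 0.56, edgeR adjusted p = 0.097). Tk1 and Pclaf were highest in cells, and both differed between the nucleus replicates.

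Fewer of the mitotic members passed the same test. Of the 24, 6 were higher in cells (Ube2c, Mki67, Cenpa, Ccnb2, Birc5 and Cdk1) and none was lower, by edgeR or by DESeq2, which called 7 higher. Of all genes, edgeR called 16.3% higher and DESeq2 15%. By unadjusted p 13 mitotic members were higher and none lower, where 23.7% of all genes were higher and 16.9% lower. The median log2 fold change of the mitotic members was 1.47. Whether the mitotic and S phase shares differ was not tested.

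Ube2c had 9.05 CPM in cells, against 0.955 and 0.905 CPM in nuclei, which is the largest change of all 38 members (log2 fold change 3.28 ± 0.51, edgeR adjusted p = 0.0097). Mki67, the coat protein of mitotic chromosomes, had 50.1 CPM in cells, against 3.89 and 10.1 CPM in nuclei (2.83 ± 0.55, edgeR adjusted p = 0.017). Both genes stood above both nucleus libraries in cells, although Mki67 also differed between the nucleus replicates. Birc5, survivin, had 9.87 CPM in cells, against 1.29 and 2.61 CPM in nuclei (2.33 ± 0.58, edgeR adjusted p = 0.034). Cdk1, the mitotic kinase, had 4.57 CPM in cells, against 1.07 and 1.07 CPM in nuclei (2.09 ± 0.57, edgeR adjusted p = 0.044). Its partner Ccnb2 was higher by 2.46 and the centromere histone Cenpa by 2.73 on the log2 scale.

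Top2a, Ccnb1, Cdc20 and Plk1 did not pass, although each was highest in cells. Top2a had 28.2 CPM in cells, against 3.93 and 11.3 CPM in nuclei (log2 fold change 1.89 ± 0.60, edgeR adjusted p = 0.067). Ccnb1 had 2.62 CPM in cells, against 0.184 and 0.737 CPM in nuclei (2.49 ± 0.89, edgeR adjusted p = 0.090), from 87, 5 and 22 UMIs. For both the spread between the nucleus replicates was wide. Cdc20 had 3.64 CPM in cells, against 1.10 and 1.54 CPM in nuclei (1.46 ± 0.60, edgeR adjusted p = 0.12). Plk1 had 2.38 CPM in cells, against 1.32 and 1.81 CPM in nuclei (0.60 ± 0.63, edgeR adjusted p = 0.51). Among the mitotic members the lowest log2 fold changes were those of Nusap1, Kif20a, Anln and Bub1, with Nusap1 at 0.35, Kif20a at 0.21, Anln at 0.03 and Bub1 at -1.21 ± 0.52 on the log2 scale (edgeR adjusted p = 0.14 for Bub1). Bub1 had 2.56 CPM in cells, against 5.29 and 6.53 CPM in nuclei, with Tyms 1 of the 2 members lower in cells than in both nucleus libraries. The cells lay above both nucleus libraries in 35 members and between them in 1. The share of all genes that lay above both is not given here, so the 35 cannot be set against a background.

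**Figure D1:**
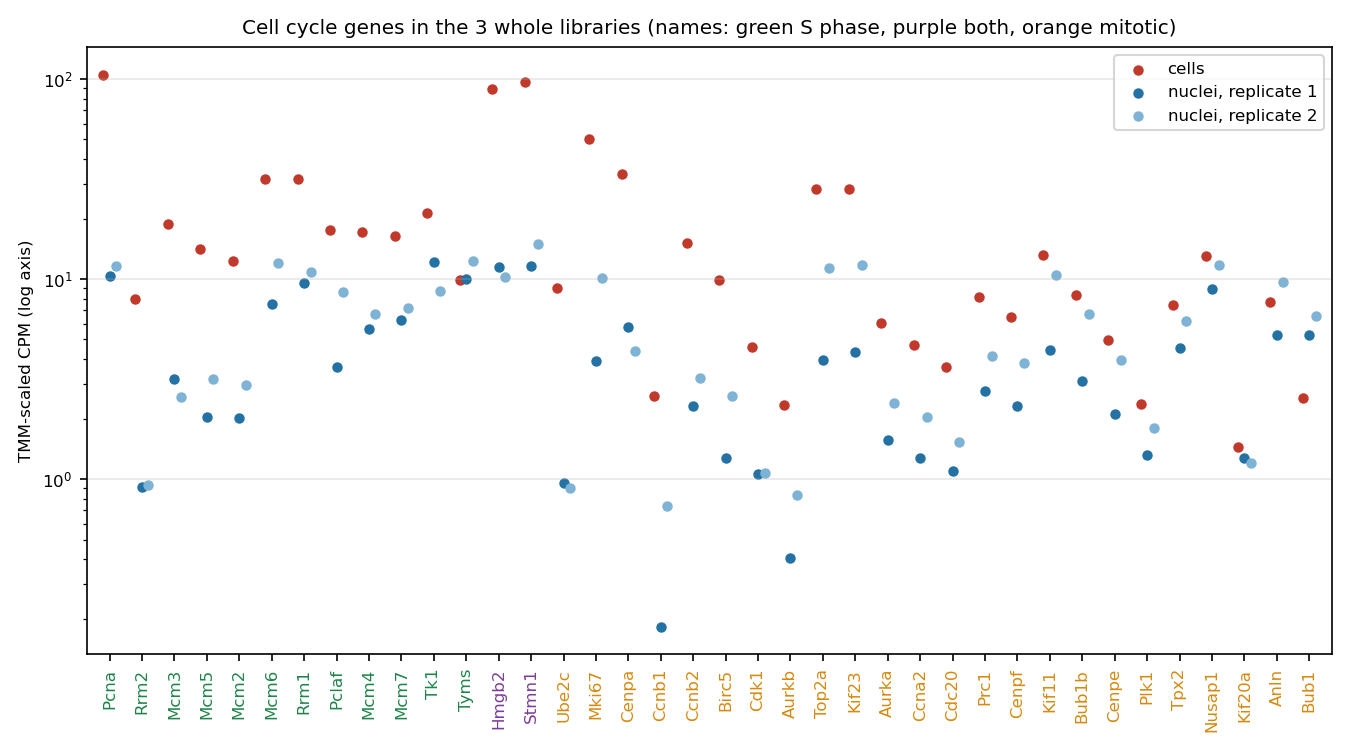
Level of each of the 38 members in the 3 whole libraries, as TMM-scaled CPM on a log axis (red, cells; dark and light blue, nucleus replicates 1 and 2). The cell point is the highest in 35 members, and it is the lowest for Tyms and Bub1.

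**Figure D2:**
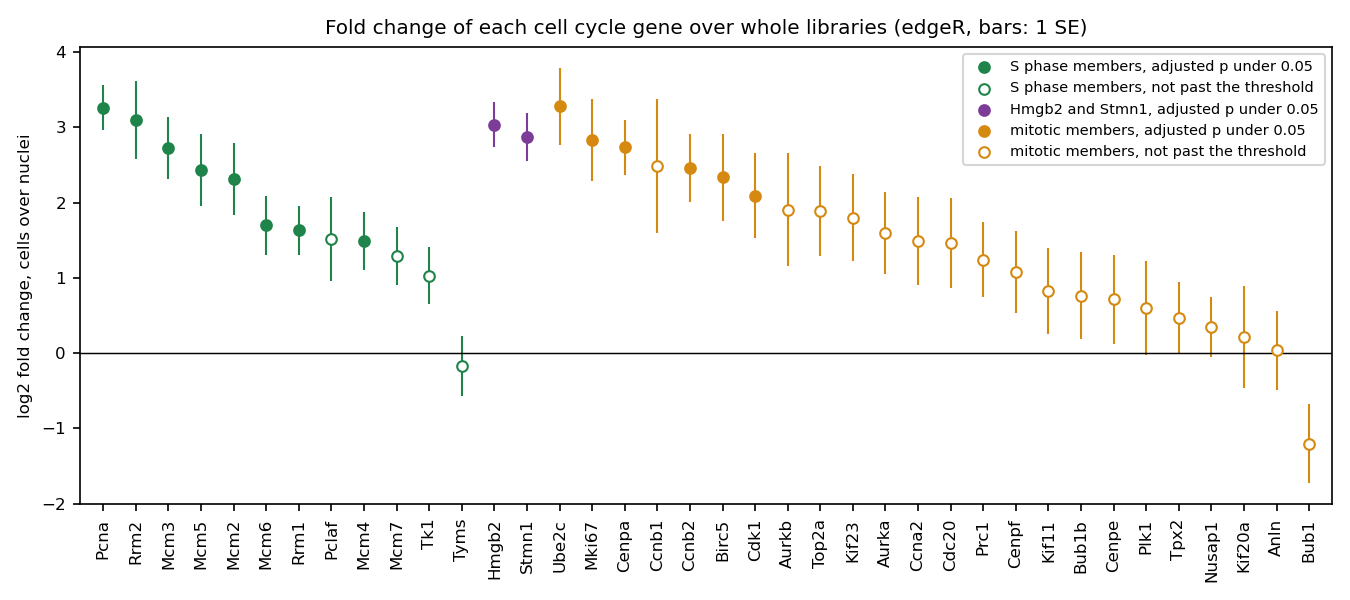
Log2 fold change of each member, cells over nuclei, over whole libraries, with bars of 1 SE from edgeR; filled points have an adjusted p under 0.05. The 16 filled points all lie above 0, and 2 open points, Tyms and Bub1, lie below it.

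Hmgb2 and Stmn1, which act in both phases, were among the most changed. Hmgb2, a chromatin protein, had 88.8 CPM in cells, against 11.5 and 10.2 CPM in nuclei (log2 fold change 3.03 ± 0.30, edgeR adjusted p = 0.0049). Stmn1, which destabilises microtubules, had 97.2 CPM in cells, against 11.6 and 15.0 CPM in nuclei (2.87 ± 0.32, edgeR adjusted p = 0.0050). Neither overlapped between the groups. In all, 16 of 38 members were higher and none lower (edgeR), and DESeq2 called 17, where it called 15% of all genes higher. With library totals in place of TMM the median of all genes moved to -0.20, that of the members to 1.43, and 12 members were called, where 11.7% of all genes were. Without nucleus replicate 1 the members' median was 1.31, and without nucleus replicate 2 it was 1.96.

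The size of the change went with the length of the gene. The 13 members whose gene spans at most 10 kb had a median log2 fold change of 2.49, the 10 of 10 to 20 kb 1.84, the 9 of 20 to 40 kb 1.63 and the 6 above 40 kb 0.74. Among the shortest were Ube2c (2.97 kb) and Pcna (3.90 kb), and among the longest Anln (58.0 kb) and Cenpe (61.0 kb). Over the 38 members Spearman's rho between span and log2 fold change was -0.62 (Pearson's r with log10 span, -0.61), and over the 17972 genes tested that had a span in RefSeq it was -0.38 (r = -0.35). Within the phases rho was -0.29 over the 12 S phase members and -0.60 over the 24 mitotic members. The same bands of all genes had medians of 1.01, 0.37, -0.05 and -0.55, so the members lay above them in each band. All points come from the same 3 libraries and genes are not independent replicates. Whether intronic reads were counted is not given in the sources used here.

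Within lineages the comparison was run on counts summed over barcodes of 1 lineage. It left out members with too few counts, so that between 30 and 37 of the 38 were tested, and a member could pass that filter through the group in which it was high. Pcna, Hmgb2 and Stmn1 were higher in cells in epithelial, endothelial, myeloid and lymphoid barcodes (edgeR adjusted p at most 0.0322 in each). In the epithelium these 3 were the members called of 36 tested, where 7.39% of genes were higher and 0.63% lower. In endothelium 8 of 37 were higher, where 13.7% of genes were higher and 5.88% lower, and DESeq2 called 3, where it called 8.37% of genes. In mesenchymal barcodes edgeR called none of 30 members at an adjusted p under 0.05, and 0% of all 16222 genes. By unadjusted p there 9 of the 30 members and 20.6% of all genes were higher, and DESeq2 called 4, where it called 8.9% of genes.

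In lymphoid barcodes 20 of 32 tested members were higher and none lower (edgeR), where 15.9% of genes were higher and 9.44% lower. DESeq2 called 9 members, where it called 6.22% of genes, and edgeR without the filter on low counts called 3 of 38, where it called 1.81% of genes. Ube2c had 120 UMIs in lymphoid cells, against 1 and 3 UMIs in lymphoid nuclei, and Pclaf had 233 UMIs, against 2 and 7. Both passed the filter on low counts through the cells, and these UMIs are a description. The class mix differed beside this result: NK cells, ILC2 and plasma cells (203, 198 and 238 barcodes) were named among cells alone, while T cells were named in all 3 libraries with 620 cells, against 323 and 400 nuclei. In barcodes named T cells the mitotic members summed to 683 CPM (without TMM) in cells, against 155 and 219 CPM in nuclei. Nuclei named T cells may include NK cells and ILC2, since these came second by markers in their clusters. The class mix is thus not set aside by this comparison.

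In myeloid barcodes 12 of 32 tested members were higher in cells and 1, Anln, was lower (edgeR), where 22.6% of genes were higher and 12.6% lower. In alveolar macrophages 11 of 31 were higher and again Anln was lower, where 22.8% of genes were higher and 12.8% lower. DESeq2 called 5 and 3 members higher and none lower in these groups, where it called 11.6% and 11.1% of genes higher, and without the filter on low counts Anln was not called in alveolar macrophages. Anln, anillin of the cleavage furrow, had 21.6 CPM in alveolar macrophage cells, against 53.2 and 42.8 CPM in their nuclei (log2 fold change -1.13 ± 0.35, edgeR adjusted p = 0.035). Ube2c had 67 UMIs in alveolar macrophage cells, against 0 and 0 UMIs in their nuclei. Taking 3 counts over both nucleus libraries as the floor, it was at least 5.82-fold higher in cells. The mitotic median in myeloid barcodes depended on scaling and on 1 library: it was 0.43, but -0.02 with library totals (where the median of all genes moved to -0.43) and -0.09 without nucleus replicate 1.

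The balance of S phase against mitotic UMIs was then set out within each library, where scaling between libraries plays no part. Over whole libraries there were 1.11 S phase UMIs per mitotic UMI in cells (10137 and 9106 UMIs), against 1.06 and 0.737 in nucleus replicates 1 and 2. S phase UMIs made up 52.7% of the total of both in cells (exact 95% interval 52.0 to 53.4%), against 51.4% (49.8 to 52.9%) and 42.4% (41.2 to 43.7%) in nuclei. The cells lay closer to replicate 1 than to replicate 2. These intervals cover counting error only, and with 1 cell library the ratios carry no test.

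Within each lineage, the ratio was higher in cells than in both nucleus libraries. It was 1.56 in epithelial cells, against 1.08 and 0.772 in nuclei, and 1.58 in endothelial cells, against 1.33 and 1.23 in nuclei. It was 1.43 in mesenchymal cells, against 1.21 and 0.970 in nuclei. In myeloid cells it was 1.01, against 0.620 and 0.375 in nuclei. The ratio was 0.969 in lymphoid cells, against 0.660 and 0.670 in nuclei. Alveolar macrophages had 1.10 in cells, against 0.602 and 0.358 in nuclei. Of 17 classes with at least 20 such UMIs in every library, the cells lay above both nucleus libraries in 13, between them in 3 and below both in 1. The lineages did not hold the same classes: club (138 and 1006 nuclei) and arterial endothelium (268 and 269 nuclei) were named among nuclei alone, while neutrophils (162), interstitial macrophages (176), plasmacytoid dendritic cells (75) and a basophil or mast cell class (34) were named among cells alone. The part of this mix in the lineage ratios was not tested.

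The balance depended on which genes were counted. With Hmgb2 and Stmn1 added to the mitotic members, the quotient of the ratio in cells over the mean ratio in nuclei was 0.947 over whole libraries, where it had been 1.24, and it was also below 1 in epithelial, endothelial and mesenchymal barcodes. Pcna made up 34.6% of S phase UMIs in cells, against 14.2% and 13.2% in nuclei. With Pcna left out, a choice made after seeing the data, the ratio was 0.728 in all cells, against 0.906 and 0.639 in nuclei, and the cells no longer lay outside the nuclei. The endothelial order turned round (0.962 in cells, against 1.14 and 1.03 in nuclei), and mesenchymal cells fell between their nuclei (0.907, against 1.06 and 0.852). In epithelial, myeloid and lymphoid barcodes and in alveolar macrophages the cells remained above both nucleus libraries. The ratio was 0.957 in epithelial cells, against 0.914 and 0.673 in nuclei, and 0.642 in myeloid cells, against 0.538 and 0.322. Lymphoid cells had 0.711, against 0.556 and 0.588 in nuclei, and alveolar macrophage cells 0.690, against 0.518 and 0.303. Bub1, high in AT2 nuclei as given below, counts among the epithelial mitotic UMIs. The ratio without Bub1 was not computed.

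**Figure D3:**
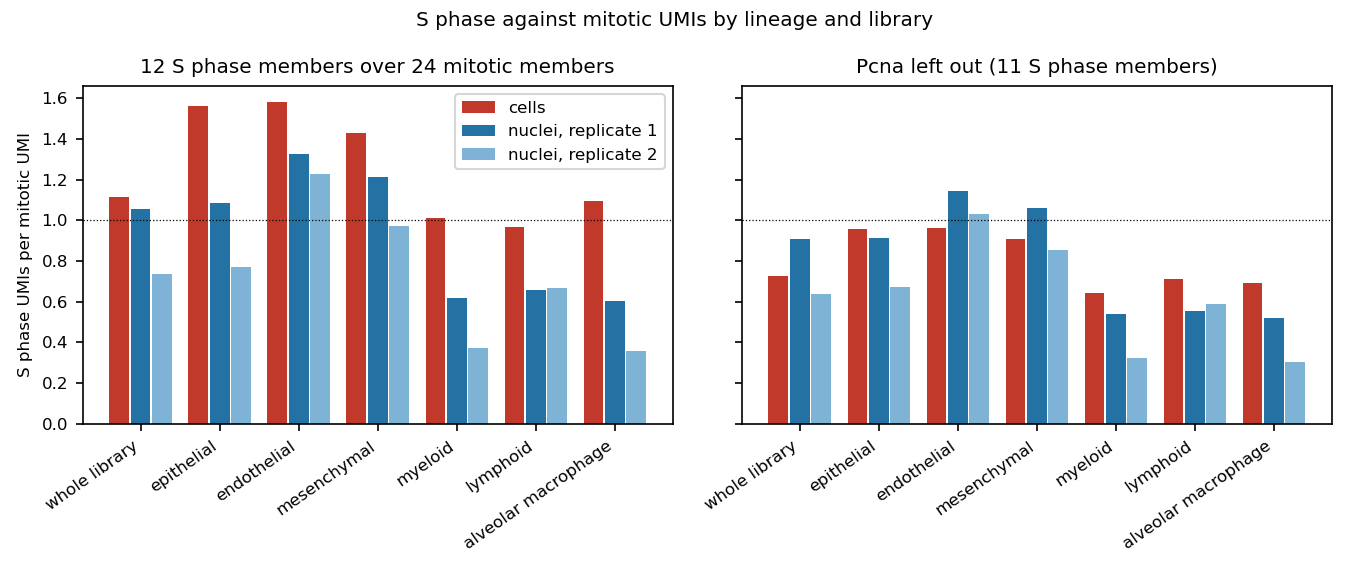
S phase UMIs per mitotic UMI by lineage in cells (red) and in nucleus replicates 1 and 2 (dark and light blue), with all 12 S phase members on the left and without Pcna on the right; the dotted line marks equal counts. On the left the red bar is the highest in every group, and on the right it is not the highest in the whole libraries, the endothelium and the mesenchyme.

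To see which barcodes carried the members, 1000 UMIs were drawn at random from every barcode, and the barcode was counted when it held UMIs of at least 2 different mitotic members. That was so for 352 of 11934 cells (2.95%, exact 95% interval 2.65 to 3.27%), against 26 of 6756 nuclei of replicate 1 (0.385%, 0.252 to 0.563%) and 106 of 9553 nuclei of replicate 2 (1.11%, 0.909 to 1.34%). Without thinning the shares were 10.2% of cells, against 2.38% and 3.59% of nuclei. At least 2 S phase members were seen in 365 cells (3.06%), against 12 (0.178%) and 52 nuclei (0.544%). Both conditions met in 92 cells, against 0 and 9 nuclei. For replicate 1 the count of 0 allows up to 0.0444% of nuclei. Type 1 pneumocytes (AT1), whose mature form does not divide, served as a class that should lack the mitotic programme: 0 of 166 cells, against 0 of 337 and 0 of 978 nuclei, which allows up to 1.81%, 0.890% and 0.307%, taking 3 counts over the number of barcodes as the limit. Their median depth was 3257 UMIs in cells, against 5530 and 4264.5 UMIs in nuclei, and was thus above that of their libraries, at 2864 UMIs in cells, against 4152 and 2559 UMIs in nuclei.

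The classes differed widely. NK cells led, with 34 of 203 (16.7%, exact 95% interval 11.9 to 22.6%), and no NK class was named among nuclei. T cells followed with 50 of 620 cells (8.06%), against 3 of 323 (0.929%) and 8 of 364 nuclei (2.20%). The exact 95% interval was 6.04 to 10.5% in T cells, against 0.192 to 2.69% and 0.954 to 4.28% in T cell nuclei, and like all intervals here it covers counting error within 1 library alone. The T cell nuclei may include NK cells and ILC2, as said above. Dendritic cells had 33 of 637 (5.18%), against 2 of 77 (2.60%) and 10 of 93 nuclei (10.8%), so that nucleus replicate 2 was the highest there. Dendritic cells joined a cluster of 410 and a cluster of 227 barcodes. The dendritic nuclei shared the leading genes Sept3, Timd4, Htr7 and Gm36723 with the cluster of 227 alone. The class may thus differ in subtype between cells and nuclei, and the part of this was not tested. Alveolar macrophages had 98 of 2259 cells (4.34%), against 2 of 154 (1.30%) and 21 of 444 nuclei (4.73%). In type 2 pneumocytes (AT2), the surfactant cells, the order was the other way for 1 replicate: 3 of 483 cells (0.621%), against 3 of 1350 (0.222%) and 25 of 1602 nuclei (1.56%). Ciliated barcodes, which do not divide either, had 0 of 119 cells, against 0 of 76 and 3 of 687 nuclei. Neutrophils, which do not divide when mature and were named among cells alone, had 6 of 162. By this count, then, not every class taken as non-dividing lacked the mitotic members.

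Classes also differed in how often both programmes met in 1 barcode. Among barcodes with at least 2 mitotic members, at least 2 S phase members were also seen in 15 of 34 NK cells (44.1%), 38 of 98 alveolar macrophage cells (38.8%) and 19 of 50 T cells (38%). Among monocytes 57 of 1363 cells (4.18%) had at least 2 mitotic members, but only 1 of the 57 (1.75%) had at least 2 S phase members too. In alveolar macrophage nuclei of replicate 2 it was 2 of 21 (9.52%). Barcodes with at least 3 mitotic members without thinning were the deeper ones, with a median of 3571 UMIs against 2845 UMIs in other cells. Of these 26.8% lay within 10% of the largest gene number of 2499, against 10.4% of other cells. The part of depth and of doublets in these shares was not tested.

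**Figure D4:**
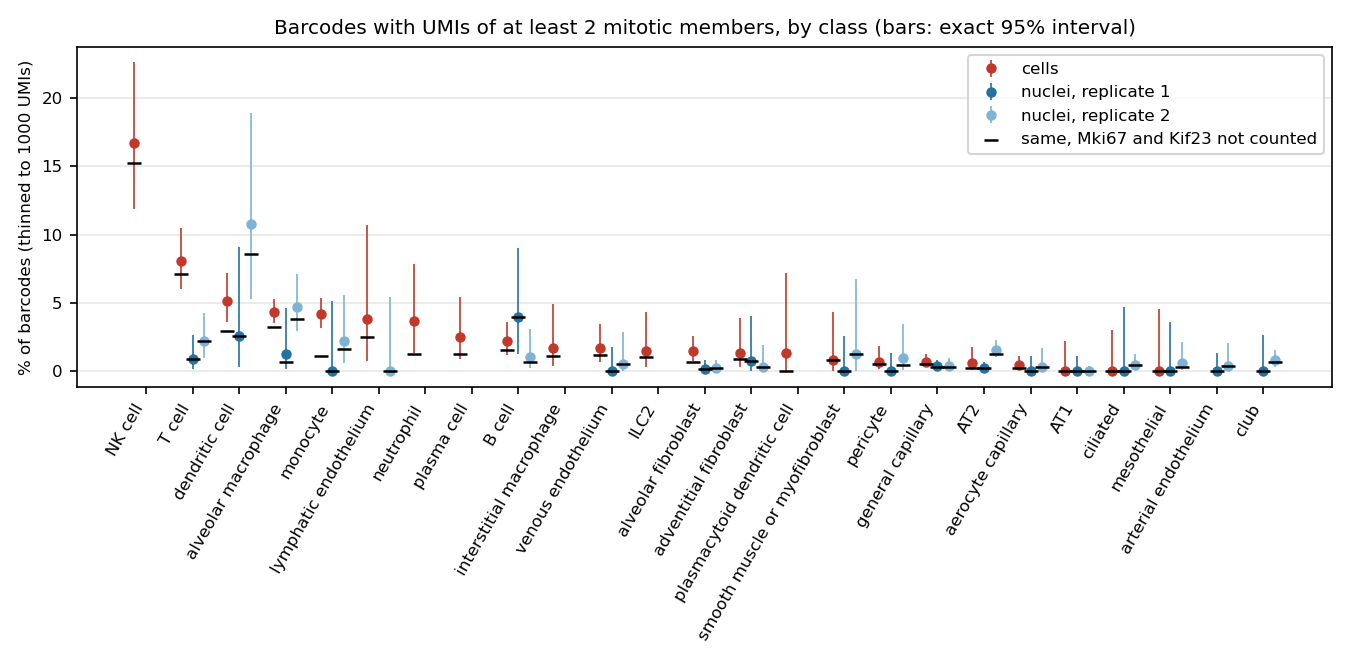
Share of barcodes of each class with UMIs of at least 2 mitotic members after thinning to 1000 UMIs, in cells (red) and nucleus replicates 1 and 2 (blue), with exact 95% intervals; black dashes give the share when Mki67 and Kif23 are not counted. NK cells and T cells lead among cells, and the dash lies well below the point in monocytes and neutrophils. Nucleus replicate 2 leads in dendritic cells, whose subtypes may differ between cells and nuclei.

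The members did not mark the same barcodes, and in some classes Mki67 was seen largely apart from the others. Over the whole cell library Mki67 went with most of the other mitotic members. After thinning, 21 of them were seen in more than 3 Mki67-positive cells, and only these entered the median. They were seen a median of 4.51 times as often in Mki67-positive as in Mki67-negative cells (range 1.21 to 8.08). The rule left out Ccnb1, in 3 of 534 positive and 21 of 11400 negative cells. Kif20a, in 0 positive and 10 negative cells, was left out too. Mki67 and Kif23, a kinesin of cytokinesis, gave 28.6% of mitotic UMIs in cells, against 11.8% and 18.4% in nuclei. After thinning, Mki67 was seen in 162 of 1363 monocytes (11.9%) and 20 of 162 neutrophils (12.3%), against 3 of 166 AT1 cells (1.81%). Mature neutrophils are known not to divide. Over the whole cell library another mitotic member (Kif23 aside) was seen in 24.3% of Mki67-positive cells, against 11.5% of Mki67-negative cells. Another such member was seen in 28 of the 162 Mki67-positive monocytes (17.3%), against 11.5% of Mki67-negative monocytes. In NK cells it was 11 of 16 (68.8%), against 27.8% of negatives, and in T cells 17 of 33 (51.5%), against 17.7%. Alveolar macrophages lay between, with 35 of 117 (29.9%), against 14.1%. When Mki67 and Kif23 were not counted, a choice made after seeing the data, the share with at least 2 mitotic members was 1.10% in monocytes and 1.23% in neutrophils, while it was 15.3% in NK cells and 7.10% in T cells.

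By level, Mki67 reached 126 CPM in neutrophils and 110 CPM in monocytes (library-scaled, without TMM), close to 128 CPM in NK cells, whereas Top2a was 164 CPM in NK cells and 17.1 CPM in monocytes. Monocytes alone held 24.7% of the Mki67 UMIs of the cell library. In nuclei of replicate 2, AT1 held 87 of 302 Mki67 UMIs (28.8%). Of 16 AT1 nuclei there with Mki67 after thinning, none had another mitotic member (exact upper limit 20.6%). Another member, Kif23 aside, was seen in 4.05% of Mki67-negative AT1 nuclei of this replicate. That share lies below the upper limit, so these 16 nuclei cannot show whether Mki67 stood apart from the other members in AT1.

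How far each gene kept to barcodes with the mitotic programme was measured as the share of its UMIs in barcodes with at least 3 other mitotic members, Mki67 and Kif23 not counted among them and no thinning. These barcodes held 2.51 to 2.79% of all UMIs in cells, against 0.288 to 0.376% and 0.972 to 1.08% in nuclei. In cells, Ccnb1 had 78.2% of its UMIs there, Cenpf 70.2%, Pclaf 66.3%, Ccna2 64.1%, Cdk1 63.2% and Ube2c 59.8%. Mki67 had 18.8% and Kif23 17.6%, and Cenpa, a mitotic member, had the lowest share with 9.64%. A mitotic member does not count toward its own barcodes, so Cenpa was scored on 252 barcodes and Pcna and Tk1 on 281. Divided by the part of all UMIs in the same barcodes, Cenpa was not the lowest. Its quotient was 3.85-fold, against 3.64-fold for Tk1, 3.66-fold for Pcna, 3.78-fold for Kif20a and 3.83-fold for Mcm4. Pcna had 10.2%, Tk1 10.2% and the helicase subunits 10.7 to 19.3%, so most of their UMIs lay outside such barcodes.

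In nuclei such barcodes held a smaller part of all UMIs. Pclaf had 5.79% of its UMIs there in nucleus replicate 2 and 0% in replicate 1, Ube2c 18.5% and 0%, and Bub1 14.9% and 2.78%. Top2a had 52.0% in cells, against 32.7% and 47.6% in replicates 1 and 2, and Kif23 had 17.6% in cells, against 24.6% and 30.9% in nuclei. Divided by the part of all UMIs that the same barcodes held, the share of Top2a was 20.5-fold in cells, against 97.7- and 48.4-fold in nuclei, and that of Mki67 6.73-fold in cells, against 30.1- and 13.5-fold in nuclei. For Bub1 it was 21.5-fold in cells, against 8.83- and 14.5-fold in nuclei. For Top2a the share was highest in cells and the quotient lowest there, and neither carries a test.

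**Figure D5:**
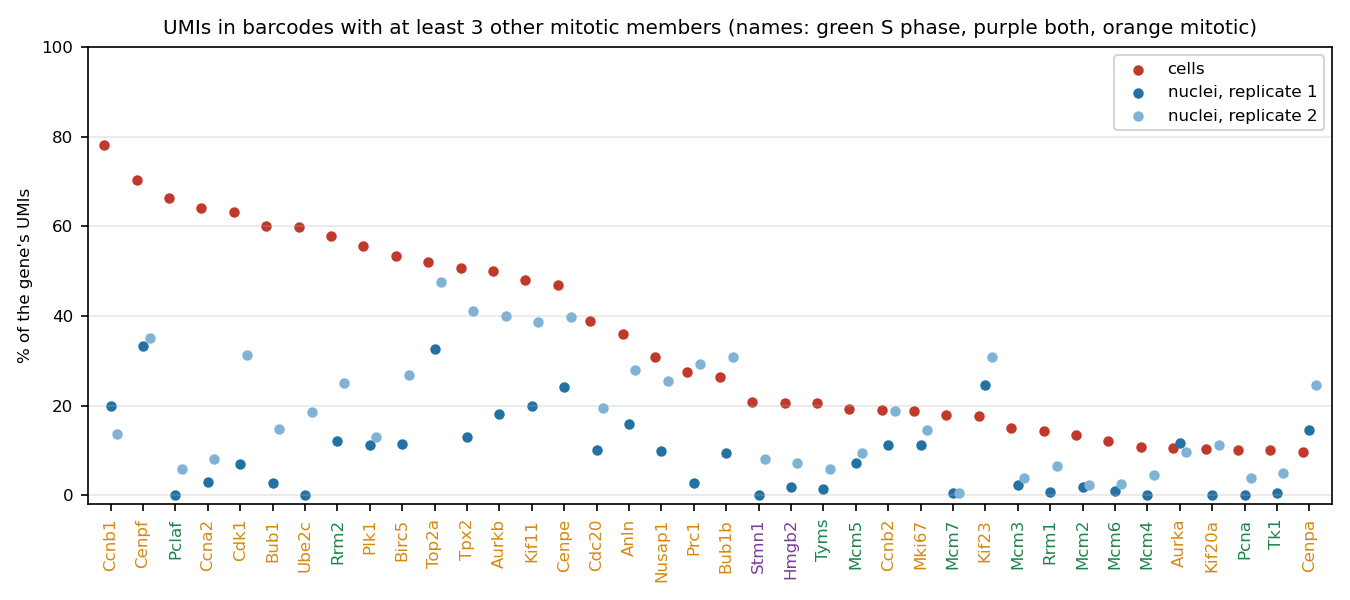
Share of each member's UMIs that lay in barcodes with at least 3 other mitotic members, in cells (red) and nucleus replicates 1 and 2 (blue), members ordered by the share in cells. Ccnb1, Cenpf and Pclaf lead in cells, while Pcna, Tk1 and Cenpa lie lowest, and Pclaf and Ube2c fall near or at 0 in nucleus replicate 1.

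The following members were picked by class after their values were seen. Bub1 stood highest in AT2 nuclei, with 113 of 144 UMIs (78.5%) in replicate 1 and 112 of 195 UMIs (57.4%) in replicate 2, at 19.2 and 27.7 CPM. In AT2 cells it had 15 of 85 UMIs (17.6%), at 9.57 CPM, second there to NK cells. These 113, 112 and 15 UMIs entered the epithelial phase ratio. They were part of 510 and 1559 epithelial mitotic UMIs in nuclei and 278 in cells. The part of Bub1 in that ratio was not tested. Pclaf in nuclei stood highest in ciliated barcodes, with 108 of 259 UMIs (41.7%) at 41.1 CPM in replicate 2 and 7 of 99 UMIs at 24.1 CPM in replicate 1, and had 8 of 584 UMIs at 22.3 CPM in ciliated cells. The level in ciliated cells was thus near that in ciliated nuclei, while NK cells at 96.8 CPM and T cells at 75.2 CPM led in the cell library.

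Tk1 in cells stood highest in dendritic cells, with 218 of 709 UMIs (30.7%) at 99.8 CPM, against 9 UMIs at 28.3 CPM and 8 UMIs at 33.4 CPM in dendritic nuclei. The subtypes in this class may differ between cells and nuclei, as said above. Bub1b had 172 of 277 UMIs (62.1%) in alveolar macrophages among cells, at 23.1 CPM, against 19.96 and 45.6 CPM in their nuclei. Stmn1 was spread over several classes: at 97.2 CPM over the whole cell library, it reached 141 CPM in general capillary cells and 135 CPM in AT2 cells, close to 141 CPM in T cells, while NK cells had 218 CPM.

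Other genes of the pathway, 112 listed by role, were compared over whole libraries in the same fit. Of the 110 tested, 29 were higher in cells and none lower (edgeR), against 16.3% and 8.19% of all genes, and the median log2 fold change was 0.99. DESeq2 called 27 higher and 1 lower, where it called 15% of all genes higher, and edgeR with library totals called 12 higher, where it called 11.7% of all genes. Of the licensing and replication genes 7 of 30 were higher, led by Rpa2, a single-strand DNA binding protein, with 28.1 CPM in cells, against 4.96 and 4.86 CPM in nuclei (log2 fold change 2.52). Fen1, the flap endonuclease, and Dbf4, the activator of Cdc7, were higher by 2.17 and 1.71. Of the G1 cyclins, kinases and E2F genes 5 of 20 were higher, led by Ccnd2 with 278 CPM in cells, against 35.3 and 39.0 CPM in nuclei (2.90), and by E2f1 (2.37) and Myc (1.93).

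Of the 7 inhibitors of cyclin-dependent kinases, 3 were higher in cells by the test: Cdkn1a (log2 fold change 4.20), Cdkn2d (2.65) and Cdkn1b (1.07). Cdkn1b, p27, had 75.7 CPM in cells, against 37.6 and 34.5 CPM in nuclei. Its groups did not overlap. Of 53 other mitotic genes tested, 14 were higher. Beside both counts, edgeR called 16.3% of all genes higher. With library totals 12 pathway genes over all lists were called higher, where 11.7% of all genes were. How these 12 fall among the lists is not given here. The leading ones of the 14 other mitotic genes were Cks2 and Cks1b, small subunits of cyclin-dependent kinases, and Dlgap5, a spindle protein. Cks2 had 13.7 CPM in cells, against 1.14 and 1.81 CPM in nuclei (3.21), and Cks1b and Dlgap5 were higher by 3.11 and 3.07.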

How the data were processed

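The deposited tables hold whole-number counts of UMIs per gene and barcode. Reads were aligned with STAR 2.5.3a to mm10, per the submitters' processing notes, and the authors' counting program with its treatment of intronic reads is not given in the sources used here. A barcode was kept when it held at least 400 genes and less than 20% of its counts were mitochondrial. Doublet calls were removed where they exceeded 0.5% of barcodes, which held for 85 barcodes of nucleus replicate 1. The 1081 genes of the cell table alone and 1133 of the nucleus table alone were left out. Clusters (scanpy 1.11.5, leidenalg 0.10.2, 2000 variable genes, 30 components, 20 neighbours, resolution 1) were made without cell cycle genes and named from markers. Counts summed per library were tested with edgeR 4.0.16 (TMM, quasi-likelihood, Benjamini-Hochberg adjustment over all genes tested, filterByExpr), with DESeq2 1.42.0 as an alternative. The edgeR script was tested on simulated data. Gene spans and promoters are from RefSeq, GRCm38.p6. Intervals are exact (Clopper-Pearson). The members and lists were chosen with earlier results of these data known. Values in every library are given for Mcm2, Mcm5, Pcna, Pclaf, Tyms, Rrm2, Mki67, Top2a, Ccnb1, Cdk1, Cdc20, Plk1, Ube2c, Birc5, Hmgb2 and Stmn1 and for the 3 members with the largest called change per direction, and the 3 largest called changes are named per pathway list. Other genes given with values were chosen after these were seen.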

Additional observations from a re-analysis of the deposited data

Results flagged for a closer look

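In lymphatic endothelium the order of the phase ratio was opposite to that of 13 of the 17 classes compared. There were 0.827 S phase UMIs per mitotic UMI in cells (62 and 75 UMIs), against 4.50 (27 and 6 UMIs) and 1.12 (19 and 17 UMIs) in nucleus replicates 1 and 2. The cells thus lay below both nucleus libraries in this class alone. The difference from the other classes was not tested, and the counts are small.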

How the results depend on the processing

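Of the alternative values computed, 70 kept their direction and stayed near the value reported, 33 moved and 7 reversed. For fold changes, phase ratios and barcode shares, near meant within the standard deviation of the 2 values that each leave out 1 nucleus library. That limit is wide where the nucleus libraries differ. For the share of barcodes with mitotic members, cells over nuclei, 2.25 with at least 1 member thus counted as near 3.95. Counts, co-detection and promoter letters had other limits. The number of near values depends on these limits. The cause was not tested except where fewer genes or samples enter by construction. Over whole libraries the 16 members called were 12 to 17 under each alternative. Within lineages the number of members called higher moved as follows. With DESeq2 it was 3 in endothelium, 4 in mesenchyme, 5 in myeloid and 9 in lymphoid barcodes and 3 in alveolar macrophages, where 8.37%, 8.9%, 11.6%, 6.22% and 11.1% of all genes were. With library totals it was 3 in endothelium, 5 in mesenchyme and 6 in myeloid barcodes, where 10.7%, 11.6% and 15% of all genes were called higher. Without the filter on low counts it was 6 in epithelium, 3 in lymphoid barcodes and 17 in alveolar macrophages, where 8.22%, 1.81% and 17.6% of all genes were. With each barcode assigned by its own markers it was 6 in epithelium, 5 in endothelium and 4 in mesenchyme, where 13.4%, 9.3% and 13.6% of all genes were. Leaving out each nucleus library in turn gave median log2 fold changes of 0.90 to 1.06 in mesenchyme, 1.94 to 2.09 in lymphoid barcodes and 1.07 to 2.36 in alveolar macrophages, and a share of barcodes with mitotic members 2.66 to 7.66 times as large in cells as in nuclei; no test could be made with 1 library on each side. The quotient of the phase ratio, cells over nuclei, reversed with Hmgb2 and Stmn1 counted as mitotic to 0.947 over whole libraries, 0.924 in epithelium, 0.790 in endothelium and 0.871 in mesenchyme, and was 1.12 in lymphoid barcodes. Without Pcna, chosen after seeing the data, it reversed to 0.942 over whole libraries, 0.884 in endothelium and 0.949 in mesenchyme, and was 1.21 in epithelium and 1.24 in lymphoid barcodes. Without Mki67 and Kif23, also chosen after seeing the data, it was 1.40 in endothelium, 1.64 in mesenchyme and 1.54 in lymphoid barcodes. In barcodes with at least 2 members of a phase it was 1.71 over whole libraries, 2.71 in epithelium and 3.11 in lymphoid barcodes, and as a median over members it was 2.11 in mesenchyme and 1.77 in lymphoid barcodes. CCAAT on the gene strand stood in 60% of mitotic and 54.5% of S phase promoters, against 21.7% of all promoters. No paired analysis was possible because the groups share fewer than 2 replicate numbers: there is 1 cell library. In nucleus replicate 1 several members rest on fewer than 30 UMIs, which limits what can be seen there.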
